A study of Oryza sativa with 18 samples.

Results

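Chromatin accessibility in the panicle, the inflorescence of rice, was compared with that in the axillary bud, the young side shoot that forms in the axil of a leaf. The members were chosen by the organ in the name of each column of the deposited table: 16 cell states of panicle and 14 of axillary bud, 30 of the 128 cell states in the table. The plants were rice (Oryza sativa) of the genotype Nipponbare, and both organs were collected fresh, with no other treatment given in the labels. Single-nucleus ATAC-seq was used, in which a transposase places adapters in open chromatin and a droplet barcode keeps the fragments of a nucleus together. Each organ had 2 libraries, 4 of the 18 in the series, and the nuclei of an organ were pooled by the authors into 1 value per cell state. The states of an organ therefore share their libraries and are not replicates, organ and library cannot be told apart, and no comparison below has a p-value. The sources used here give neither the age of the plants nor the stage of the panicles.

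Panicle and axillary bud both begin as shoot meristems, groups of dividing cells at a growing tip. A bud meristem makes leaves and a vegetative branch. In the panicle, branch meristems arise on the rachis (the main axis) and end in spikelet meristems, and each spikelet meristem makes glume-like bracts and a floral meristem, from which the lemma, the palea, the lodicules (the counterparts of petals) and the stamens come. Open chromatin in plants lies mostly at promoters and at distal regulatory elements.

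The panicle states fell into 5 whose names hold a meristem, 7 named for lateral organs, the rachis and 3 without a cell type name. In work on rice panicles PBM and SBM usually stand for primary and secondary branch meristem, SM for spikelet meristem and FM for floral meristem; Epidermis_meristem is the remaining one of the 5. The lateral organs were Bract, Rudimentary_glume, Sterile_lemma, Lemma, Palea, Lodicule and Stamen. Of the bud states, 9 had vascular names, 2 were epidermal (Epidermis and Stomatal_precursor), 2 were Mesophyll and Bundle_sheath, and 1 had no cell type name. The organs thus share no label, and the bud columns are mostly vascular. Read depth per column is unknown. As a stand-in, a column held 162 to 2587 distinct values in panicle (median 691) and 121 to 1842 in bud (median 472). The labels could not be checked against marker genes, because no gene annotation in the build of the coordinates was used here.

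Of 128143 regions with a normalised read count (CPM) of at least 1 in any of the 30 states, 224 (0.175%) were more open in every panicle state than in every bud state, and 108 (0.0843%) were more open in every bud state than in every panicle state. These counts rest on the demand that all pairs of states are in order: with 90% of the pairs they were 5094 and 3801. The median difference between the mean over panicle states and the mean over bud states was 0.01 on the log2(CPM + 1) scale, and its SD over regions was 0.33. A difference of means beyond 1 on that scale was found in 438 regions with panicle higher (0.342%) and in 1105 with bud higher (0.862%). Of these, 53 and 34 also had no overlap between the organs. Among the regions without overlap, the difference of means had a median of 0.69 where panicle was higher, with a range of 0.13 to 2.56, and of -0.60 where bud was higher, with a range of -2.18 to -0.17.

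**Figure D1:**
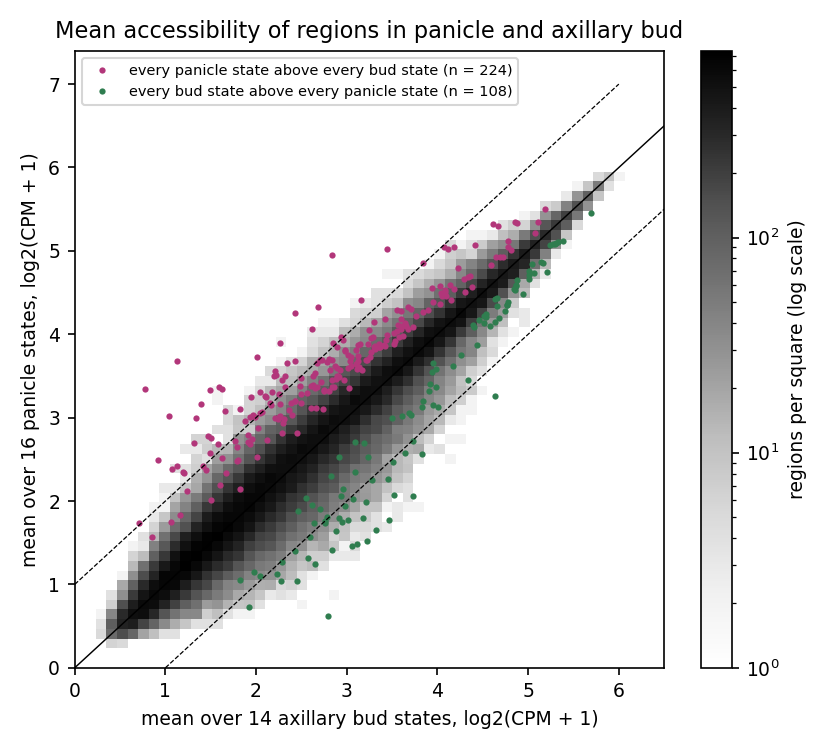
Mean accessibility of 128143 regions over 14 axillary bud states (x axis) and 16 panicle states (y axis), both on the log2(CPM + 1) scale. Grey squares count regions on a log scale, coloured points are the 224 and 108 regions without overlap between the organs, the solid line marks equal means and the dashed lines a difference of 1. Of the regions without overlap, 53 and 34 lie beyond the dashed lines, and many of the others lie inside the cloud.

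The share of a region's variance that lay between the organs had a median of 9.07% over all regions (interquartile range 2.17 to 23.1). In the regions without overlap, which were chosen for this separation, it was 74.3% with panicle higher and 72.7% with bud higher. The 224 regions had a median of the mean CPM of 9.01 and the 108 had 9.54, against 4.84 for all regions.

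Among the regions without overlap, the largest differences in favour of panicle are given with the lowest, the median and the highest state of each organ. First came chromosome 12 from 10120151 to 10120651, at a CPM of 5.35 (Rachis), 9.81 and 12.8 (Panicle_UN2) in panicle, and 0.290 (Axillary_bud_UN1), 0.721 and 2.08 (Developing_xylem) in bud. The ratio of the medians was 13.6 and the difference of means was 2.56 on the log2(CPM + 1) scale. It was the only region of the 128143 whose lowest panicle state exceeded the highest bud state by more than 1 on that scale (0.00078%), and no region passed this limit in the other direction (0%). Meristem states (median 7.94) and lateral organs (11.0) were all far above the highest bud state, and the rachis, the lowest, was still above it.

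Next was chromosome 12 from 24672215 to 24672715, at a CPM of 2.86 (Rachis), 15.6 and 25.6 (Sterile_lemma) in panicle, and 0.165 (Xylem_parenchyma), 1.16 and 2.72 (Xylem_precursor) in bud. The ratio of the medians was 13.4 and the difference of means 2.55. Here the panicle states were uneven. The median was 18.2 over the 7 lateral organs and 5.51 over the 5 meristem states, and the rachis lay just above the highest bud state.

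Chromosome 3 from 31055296 to 31055796 held the most open of the first 10 regions, with CPM values of 16.5 (Panicle_UN2), 33.1 and 40.7 (Sterile_lemma) in panicle and of 3.71 (Developing_xylem), 6.03 and 7.89 (Phloem_precursor) in bud. The difference of means was 2.11. Meristem states (median 34.3), lateral organs (29.7) and rachis (34.6) were close to each other, as were the vascular (6.02) and epidermal (6.47) states of bud. The ranges of the organs lay well apart.

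A similar pattern held on chromosome 7 from 479409 to 479909, with 11.6 (Stamen), 18.9 and 23.5 (Lemma) in panicle against 2.82 (Companion_cell), 4.49 and 5.48 (Bundle_sheath) in bud, a difference of means of 1.82. On chromosome 1 from 6486834 to 6487334, panicle had 2.96 (SBM), 7.54 and 19.2 (Sterile_lemma) against 0.393 (Xylem_precursor), 0.920 and 2.55 (Epidermis), a difference of 1.98. In that region the lowest panicle state, SBM, lay close to the highest bud state. On chromosome 6 from 3167679 to 3168179, the values were 5.53 (Epidermis_meristem), 8.33 and 17.5 (FM) against 0.898 (Axillary_bud_UN1), 1.97 and 3.33 (Developing_phloem), a difference of 1.84.

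The other 4 of the first 10 lay on chromosome 7 from 28307031, chromosome 3 from 269550, chromosome 11 from 21838939 and chromosome 8 from 28246403, each 501 bases wide. Their differences of means ran from 1.72 to 1.77, and their ratios of medians from 4.09 to 5.44. The narrowest panicle range was that on chromosome 11, 9.48 to 15.3 CPM over the 16 states, and the widest that on chromosome 7, 3.65 to 30.3, with Sterile_lemma highest.

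**Figure D2:**
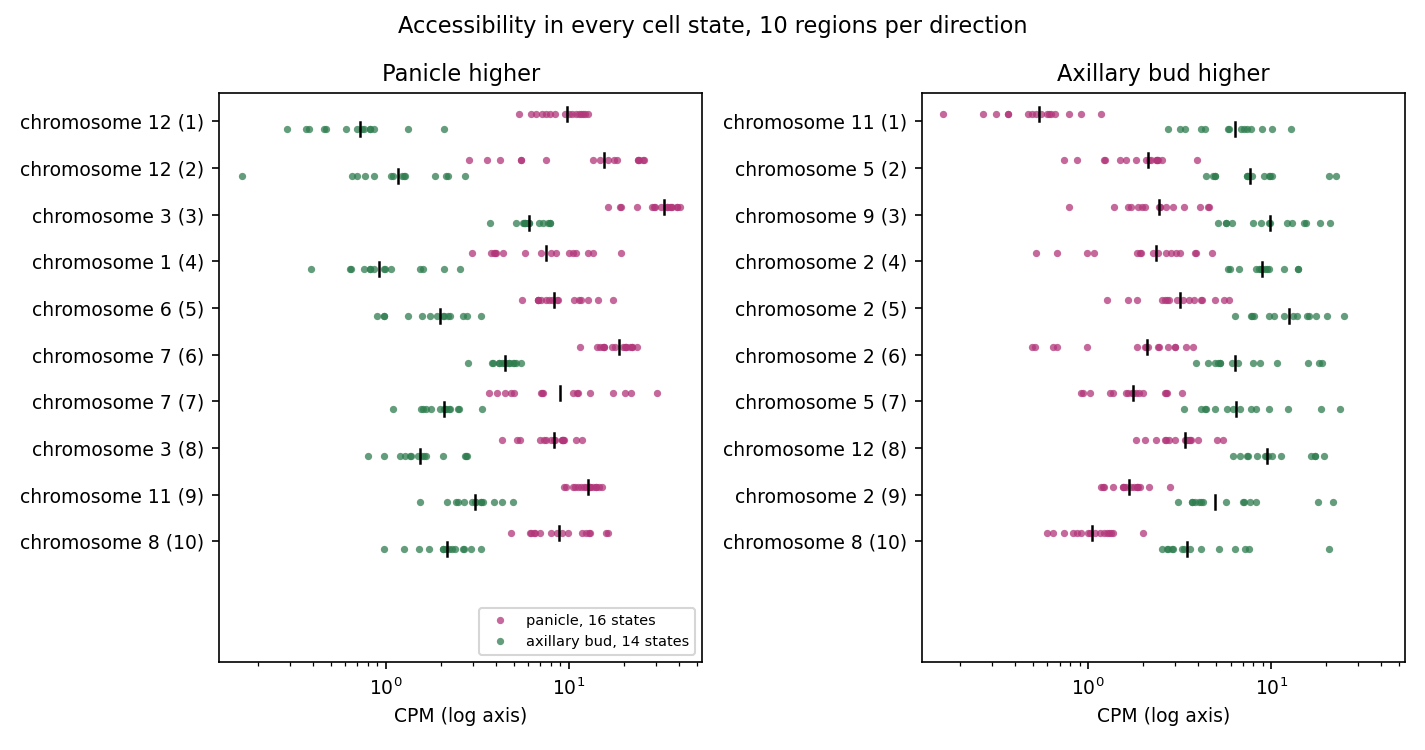
CPM (log axis) in every panicle state (upper row of points) and every axillary bud state (lower row) for the 10 regions per direction with the largest difference of means among those without overlap, in that order from the top; black bars are medians over states. In the left panel every panicle point lies right of every bud point, and in the right panel the reverse holds, by the choice of the regions.

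In favour of bud, the largest difference among the regions without overlap lay on chromosome 11 from 9620002 to 9620502, where bud reached CPM values of 2.75 (Developing_phloem), 6.34 and 12.8 (Axillary_bud_UN1) and panicle 0.162 (FM), 0.538 and 1.18 (Lemma). The ratio of the medians was 11.8 and the difference of means -2.18. All 5 meristem states of panicle had a CPM of at most 0.659. In bud the vascular states (median 7.09) and the epidermal states (5.10) were both well above this.

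On chromosome 5 from 5654603 to 5655103, the CPM was 4.39 (Developing_phloem), 7.67 and 22.7 (Axillary_bud_UN1) in bud and 0.739 (SBM), 2.11 and 3.93 (Sterile_lemma) in panicle, a difference of -1.70. On chromosome 9 from 14074445 to 14074945, it was 5.11 (Phloem_precursor), 9.83 and 21.0 (Phloem_parenchyma) in bud and 0.790 (Panicle_UN4), 2.46 and 4.57 (Panicle_UN2) in panicle, also -1.70. In both, the highest panicle state lay just under the lowest bud state. The other 7 of the first 10 had differences from -1.67 to -1.41. The state named Axillary_bud_UN1 was the highest bud state in 5 of the 10.

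How the states of the organs relate was described by correlation across all 128143 regions. Panicle states correlated with each other at a mean of 0.924 (range 0.847 to 0.970 over 120 pairs), bud states at 0.894 (0.801 to 0.968 over 91 pairs), and panicle with bud states at 0.881 (0.785 to 0.966 over 224 pairs). The mean between the organs was thus 0.881 beside 0.894 within bud. All values share the same regions and libraries. With the columns in the shared range of distinct values, the means were 0.922, 0.898 and 0.882. With the other 7 organs the mean correlation of panicle ran from 0.649 (leaf) to 0.792 (seedling), and that of bud from 0.649 (leaf) to 0.806 (seedling). For all 16 panicle states, the closest state outside panicle was a bud state. For bud this held for 11 of 14 states, with panicle.

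The closest bud state of a panicle state had a vascular name in 5 of 16, was Mesophyll or Bundle_sheath in 6 and was epidermal in 5. Epidermis_meristem of panicle and Epidermis of bud had the highest correlation between the organs, 0.966. It exceeded the correlation of Epidermis_meristem with all 15 other panicle states, the closest of which, Panicle_UN2, had 0.959. This was the only panicle state closer to a bud state than to any of its own organ.

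Of the 5 states with a meristem in their name, 3 were closest to a vascular state of the bud, where 9 of 14 states are vascular. The same held for Rudimentary_glume (Phloem_precursor, 0.933) and Panicle_UN4 (Vascular_cell, 0.927). SBM was closest to Developing_phloem (0.949) and next closest to Phloem_precursor (0.947), SM was closest to Phloem_precursor (0.955), and PBM to Vascular_cell (0.9499). For SBM the value exceeded its correlation with 14 of the 15 other panicle states, and in the seedling, too, its closest state was Developing_phloem (0.929). Developing_phloem of bud was in turn closer to SBM (0.949) than to its closest bud state, Companion_cell (0.934). The closest panicle state of SBM was SM, at 0.953. Whether this column holds branch meristem could not be checked against marker genes, and the medians over meristem states given above include it. FM differed from SBM, SM and PBM. Its closest bud state was Bundle_sheath at 0.903, below its correlation with 14 of the 15 other panicle states.

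**Figure D3:**
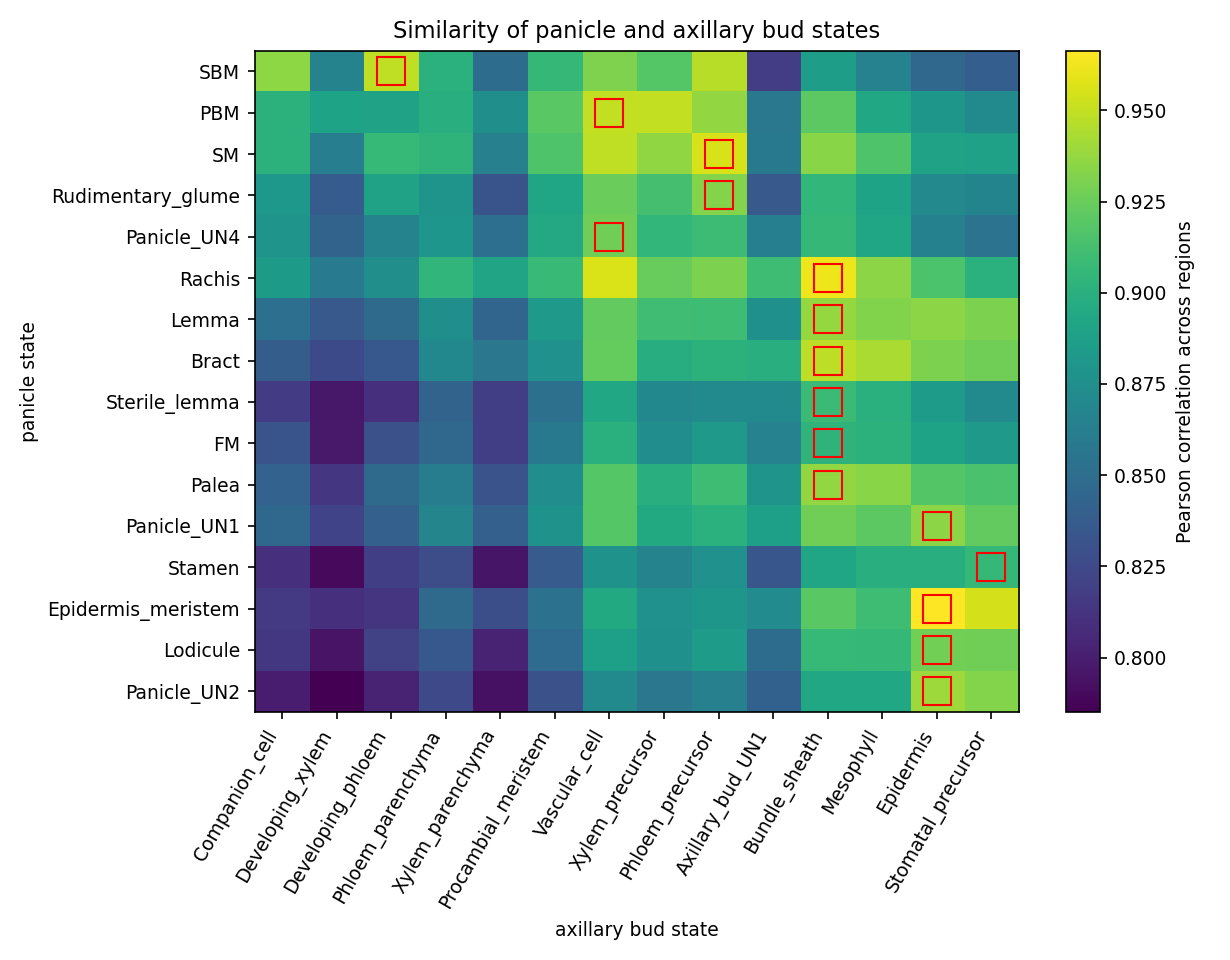
Pearson correlation across regions (colour) of each panicle state (rows) with each axillary bud state (columns), both ordered by their score on the first principal axis of the 30 states; a red square marks the closest bud state of each panicle state. SBM, PBM and SM pair with vascular-named bud states, as do Rudimentary_glume and Panicle_UN4. Epidermis_meristem and Epidermis form the brightest square at 0.966.

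In a principal component analysis of the 30 states, the first axis held 29.5% of the variance and ran from Companion_cell of bud (-0.38) to Panicle_UN2 (0.31). It did not separate the organs: panicle states spanned -0.22 (SBM) to 0.31 and bud states -0.38 to 0.23 (Stomatal_precursor). All 9 vascular states of bud lay at the lower end together with SBM, and Stamen, Epidermis_meristem and Lodicule lay next to Panicle_UN2. The second axis (14.1%) ran from SBM (-0.27) to Axillary_bud_UN1 (0.35), with medians of -0.06 in panicle and 0.11 in bud, and the organs overlapped on it too.

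At regions with a difference of means beyond 1, the highest state of the higher organ was counted, which does not measure its part in the mean. A very high state also raises the mean by which the region was chosen, so part of these counts is built in. How often each state led over all regions was not counted. Of the 438 regions with a panicle mean higher by more than 1, Sterile_lemma was the highest panicle state in 122 and FM in 80. The 7 lateral organs, of 16 panicle states, together led 57.5%. Of the 1105 regions with a bud mean higher by more than 1, Xylem_parenchyma was the highest in 293, Developing_xylem in 244 and Phloem_parenchyma in 239. The 9 vascular states, of 14 bud states, together led 88.6%. Most of these regions did overlap between the organs: 385 of the 438 and 1071 of the 1105. Sterile_lemma (228 distinct values) and Developing_xylem (121) were among the shallower columns. With columns weighted by their distinct values, the counts of 438 and 1105 became 196 and 478, and with the columns in the shared range of distinct values they were 431 and 1018.

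Regions in which 1 state exceeded every state of the other organ by more than 1 were counted, with their share of all regions compared. In panicle the count ran from 11 in SBM (0.00858%) and 21 in Rachis (0.0164%) to 400 in FM (0.312%) and 643 in Sterile_lemma (0.502%). In bud it ran from 10 in Phloem_precursor (0.0078%) to 2099 in Developing_xylem (1.64%) and 2212 in Xylem_parenchyma (1.73%). Axillary_bud_UN1 had 1483 (1.16%) with 1028 distinct values, above the median of its organ. By distinct values, the deepest panicle column was Rachis (2587) and the shallowest bud column Developing_xylem (121). SBM had 1032, FM 478, Sterile_lemma 228, Phloem_precursor 467 and Xylem_parenchyma 477. A link of these counts to depth was not tested. Examples chosen after their values were seen follow. In FM, chromosome 1 from 6693964 to 6694464 had a CPM of 34.8, against a median of 6.95 over the other panicle states and a maximum of 3.72 in bud. In Sterile_lemma, chromosome 2 from 5284424 to 5284924 had 19.2, against 1.96 and 1.67. In Developing_xylem of bud, chromosome 3 from 1539126 to 1539626 had 17.2, against a median of 0.450 over the other bud states and a maximum of 0.985 in panicle. In Phloem_parenchyma, chromosome 8 from 3490286 to 3490786 had 27.9, and Procambial_meristem had 18.1, against a maximum of 1.62 in panicle. The last 2 columns are vascular states with no counterpart by name in the panicle.

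The states with an epidermis in their names were also compared directly, although one of them is named for a meristem. Epidermis_meristem of panicle exceeded Epidermis of bud by more than 1 on the log2(CPM + 1) scale in 407 regions (0.318%) and fell below it by more than 1 in 629 (0.491%). Of these, 398 and 597 had the same direction in the difference of organ means. Those means include the 2 epidermal columns, so part of this agreement is built in. The share with the same direction over all regions was not counted. At the 224 regions with every panicle state higher, the epidermal pair differed by a median of 0.54, and at the 108 regions with every bud state higher by -0.47, compared with 0.69 and -0.60 for the organ means. The direction in these 2 sets is fixed by their choice. Chromosome 3 from 31055296 had a CPM of 36.4 against 6.91 in this pair. Chromosome 4 from 30185726 to 30186226 had 15.1 against 2.45, and its medians over the other states were 12.6 in panicle and 2.18 in bud. An opposite example was the region on chromosome 2 from 32752948 to 32753448, with 3.17 against 15.5. Its median over the other bud states was only 4.42, and the authors' list names it for the Epidermis of bud, leaf and seedling among other states.

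The levels in the other 7 organs had no part in choosing the regions. At the 224 regions higher in panicle, the median level was 3.62 on the log2(CPM + 1) scale in panicle and 2.85 in bud. It was 2.68 to 2.92 in the roots, the seedling stages, leaf and late seed, and 3.14 in early seed. At the 108 regions higher in bud, it was 3.04 in panicle, 3.78 in bud and 3.62 to 3.86 in the other organs. In both sets the medians of the other organs were thus nearer to bud than to panicle. This was seen for the level. The share of states with a CPM of at least 1 decides few regions: 197 of the 224 and 86 of the 108 had the same share in panicle and bud. Of the rest, 15 were nearer bud and 12 nearer panicle in the first set, and 17 and 5 in the second. By the level, the mean of each of the 7 organs was nearer to bud in 96 of the 224 regions (42.9%). In 6 (2.68%) each was nearer to panicle. Of the 108 regions, these were 23 (21.3%) and 5 (4.63%). For single organs, the share of the 224 regions nearer bud ran from 60.7% (early seed) to 83.9% (early seedling). Of the 108 regions it ran from 51.9% (seminal and crown root) to 75.9% (early seedling).

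**Figure D4:**
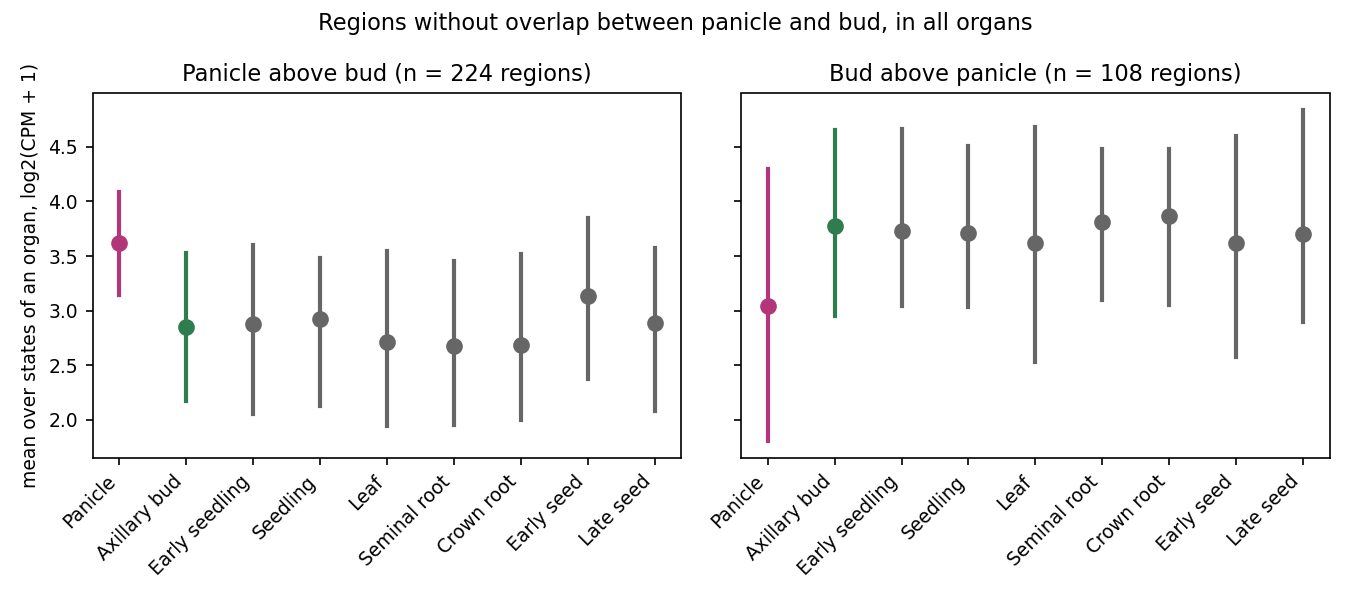
Accessibility of the 224 regions with panicle above bud (left) and the 108 with bud above panicle (right) in all 9 organs. Points are medians over regions of the organ's mean on the log2(CPM + 1) scale and lines are interquartile ranges; panicle, at 3.62 on the left and 3.04 on the right, lies apart from bud and from most of the other organs.

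Single regions varied in this respect. In 7 of the 224 regions every panicle state exceeded all 112 states of the other organs, and both the chromosome 3 region from 31055296 and its neighbour from 31055811 were among them. In the first, the highest state outside panicle was Mesophyll of leaf at 8.87, and the lowest panicle state had 16.5. Chromosome 12 from 10120151 was open in seed as well, with a mean of 5.24 in early seed and 5.09 in late seed and at most 1.26 in each of the remaining 5. Chromosome 1 from 6486834 was low in bud (mean 1.13) but not elsewhere, at 10.0 in leaf, 7.95 in late seed and 6.69 in crown root. Of the bud regions, that on chromosome 11 from 9620002 had a mean of 6.45 in bud and of at most 1.22 in each other organ. Those on chromosome 2 from 35278678 and from 35639394 were instead low in panicle. The first had a mean of 2.01 in panicle against 8.71 in bud and 12.2 to 27.2 in the other 7 organs, and the second 1.70 against 7.32 and 5.23 to 17.2. One region, on chromosome 6 from 5963331 to 5963831, was more open in every bud state (at least 33.2) than in all 114 other states (at most 32.7), a narrow margin.

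Pairs of panicle or bud with another organ were counted in the same way. Panicle and bud had 332 such regions in all (0.259%). Panicle had 694 (0.539%) with early seedling and 883 (0.687%) with seedling. With roots, seed stages and leaf it had 10623 to 18721 (8.27 to 14.6%). Bud had 130 (0.101%) with early seedling and 188 (0.146%) with seedling, and 6042 to 14436 (4.70 to 11.2%) with the rest. These comparisons share columns, and the number of columns differs between organs (leaf has 8), which itself changes how often ranges fail to overlap.

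The authors' list of cell-type-specific regions treats these regions mostly as broadly accessible. Of the 224 regions, 210 were listed, 183 as broadly accessible and 27 as specific (12.9%, exact 95% interval 8.65 to 18.2), 13 of them for a panicle state and none for bud. Of the 108, 97 were listed, 89 as broadly accessible and 8 as specific (8.25%, interval 3.63 to 15.6), 5 of them for a bud state and none for panicle. Over all regions compared, 35.2% of those listed were specific. The demand on every state of an organ favours regions open in all its states, so part of this gap follows from the choice. For regions chosen by a difference of means beyond 1, the share was 29.4% with panicle higher and 12.9% with bud higher. The list was made from the same nuclei and the sources used here do not state its rule. It names a panicle state IM for 480 regions, which has no column in the table, and names the column Panicle_UN4 for 0, so the names in the list and the table do not match fully. Of the 10 regions named in each direction, 8 and 7 were marked as broadly accessible. Conversely, 1646 regions listed for panicle and not bud had a median difference of 0.46 and a panicle mean higher by over 1 in 101 cases, and 2817 listed for bud and not panicle had -0.31 and a bud mean higher by over 1 in 109.

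Some of the regions lay side by side. Of the 224 regions higher in panicle, 36 (16.1%) had another of the set starting within 10000 bases, in 15 runs, and of the 108 regions higher in bud 8 (7.41%) did, in 4 runs. No such share was taken over all regions, and the 2 sets differ in size, so these shares do not measure clustering. Runs of 3 or more occurred 3 times, all with panicle higher. The regions without overlap in these runs are higher in panicle by choice, and they enter the counts of higher panicle means below. On chromosome 3 from 31041572 to 31061695, 5 of the 11 regions in the table had no overlap, and the panicle mean was higher in 10 of the 11. The 2 strongest are adjacent, from 31055296 and from 31055811, with panicle medians of 33.1 and 30.9 and bud medians of 6.03 and 10.4. The region from 31058260 was the most open of the run in either organ, at medians of 42.8 and 22.9, but its ranges overlapped. The region from 31049033 went the other way, at 3.14 in panicle and 4.06 in bud.

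On chromosome 1 from 6486256 to 6494719, 4 of 6 regions had no overlap, and the panicle mean was higher in all 6, by 0.90 to 1.98. The most open of them, from 6492766, had medians of 31.2 in panicle and 16.4 in bud. On chromosome 7 from 2712884 to 2723839, 3 of 5 regions had no overlap and all 5 had a higher mean in panicle, by 0.27 to 1.45. The region from 2715873 led, with medians of 15.98 and 4.82. Over chromosomes, the share of regions with every panicle state higher ran from 0.116% on chromosome 9 (9 regions) to 0.276% on chromosome 11 (23 regions). That with every bud state higher ran from 0.0360% on chromosome 11 (3 regions) to 0.128% on chromosome 3 (19 regions). The counts are small, and differences between chromosomes were not tested.

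**Figure D5:**
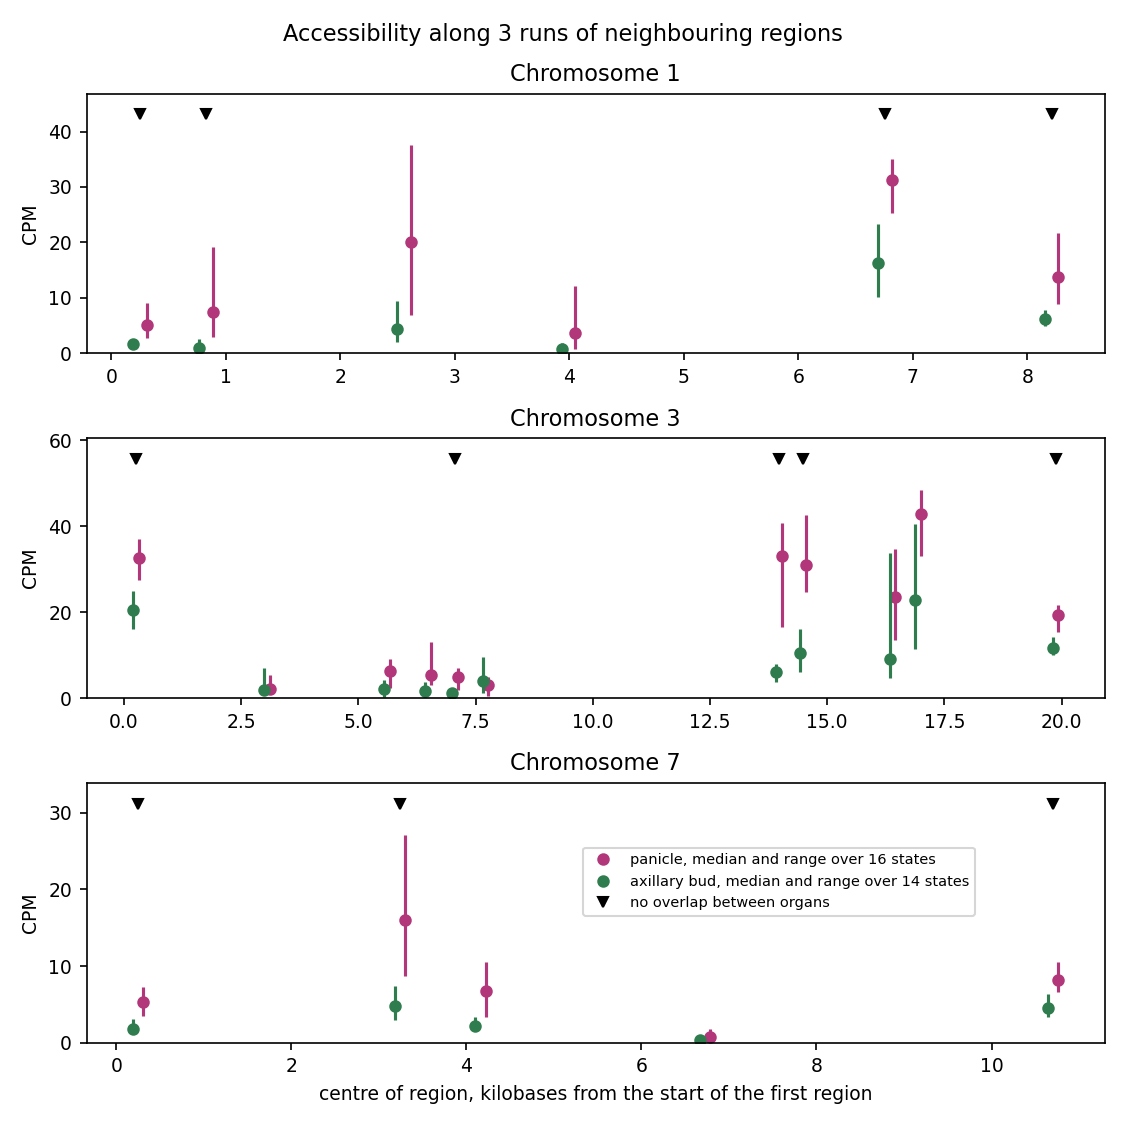
CPM of all regions of the table in the 3 runs, with the median (point) and the range (line) over 16 panicle and 14 axillary bud states, against the distance of the region's centre from the start of the run; the organs are drawn slightly apart. Triangles mark regions without overlap, 4 on chromosome 1, 5 on chromosome 3 and 3 on chromosome 7, and panicle is the higher organ in each of them.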

How the data were processed

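Per the submitters' processing notes, BWA and MACS2 were used; the sources used here state no role or version for them, no genome build and no rule for naming the cell states. The authors deposited log2 values, by the name of the table of CPM, with 1 column per cell state of an organ (128764 regions, 128 columns). By their values, all columns have nearly the same distribution, so the number of regions above a given level can hardly differ between columns. Such numbers per column therefore cannot be used to compare the organs. Other deposited data, the names of cell states for 120048 listed regions, hold no score. No column lacked an organ.

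The test design had assumed CPM on a linear scale; each log2 value was therefore first raised to CPM and taken as log2(CPM + 1), which understates differences of low regions. A region was kept where any of the 30 columns reached a CPM of 1. Regions were called without overlap where every state of one organ exceeded every state of the other. Limits on differences were 1 on this scale. Named regions are the 10 without overlap with the largest difference of means per direction, and further ones are marked as chosen after their values were seen or belong to the runs and sets described. Python 3.11.15, numpy 2.4.6, pandas 2.3.3 and scipy 1.17.1 were used. The code of the counts was run on simulated data with known answers. This checks the code and not the counts of the real regions. Intervals are exact 95% binomial (Clopper-Pearson) intervals and cover counting error only. No SD or p-value over states is given, since states of an organ share libraries. Starts are read as counted from 0 in the files and printed counted from 1. Gene lists were not used, because the gene table at hand is of another assembly. The comparison and its limits were chosen with earlier results of these data known.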

Additional observations from a re-analysis of the deposited data

How the results depend on the processing

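No paired analysis was possible because no column carries a replicate number. The gene-list comparisons were not run, since no annotation of the build of the coordinates was at hand. The direction of the 20 named regions is fixed by their choice, so it tells nothing of stability. Their differences were retaken with a pseudocount of 0.1 or 5 and on the deposited log2 values. They were also retaken with columns in the shared range or with a cell type name. Of these 100 values, 37 moved by more than the spread over states. All 40 values with changed columns stayed within it, so the 37 all came from a changed pseudocount or scale. The counts without overlap do not depend on the pseudocount. They were 224 and 108 with no filter, 277 and 142 with columns in the shared range of distinct values (15 panicle, 13 bud), and 279 and 139 without columns lacking a cell type name. Without the deepest and shallowest column of each organ they were 319 and 168, and with 90% of column pairs in place of all they were 5094 and 3801. Leaving out each column in turn, added after seeing the data, gave 225 (without Vascular_cell) to 320 (without Mesophyll of bud) and 108 to 187 (without SBM of panicle), so SBM alone lowers the second count by over 1.5 times.

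The counts beyond 1 depend on the scale. With panicle higher they were 1256 at a pseudocount of 0.1, 28 at 5, 1575 on the deposited log2 values, 658 with medians over states and 196 with columns weighted by distinct values. With bud higher these were 2883, 45, 3329, 1759 and 478. The region count with a gap beyond 1 was 3 at a pseudocount of 0.1, 0 at 5 and 2 without unnamed columns for panicle, and 1 at 0.1 for bud. With only regions listed as specific, the mean correlation was 0.761 within panicle, 0.672 within bud and 0.648 between them. The share listed as specific was 29.4% for regions with a panicle mean higher by over 1, in place of 12.9% for those without overlap. Over the pooled states of the other organs, 188 of the 224 and 75 of the 108 regions lay nearer bud. By the share of states with a CPM of at least 1 these were 15 and 17, since panicle and bud had equal shares in 197 and 86. By that share, 12 and 5 lay nearer panicle. Neither measure was taken over all regions. The cause of the other changes was not tested.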
